A study of Homo sapiens with 36 samples.

Results

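The effect of docosahexaenoic acid (DHA), a long-chain n-3 polyunsaturated fatty acid, after 6 h was taken as the mean of 3 differences in HepG2 cells, an established human hepatoma line used as a model of hepatocytes. These were DHA against vehicle control (Ctrl), DHA + PRO against propionate (PRO), a short-chain fatty acid, and DHA + PCA against protocatechuic acid (PCA), a phenolic acid. All 18 samples of 6 h among the 36 of the series were used, 9 with DHA and 9 without, in 6 groups of 3 independent experiments. DHA was given at 50 µM, PRO at 70 µM and PCA at 20 µM, and each sample was RNA pooled from 3 culture replicates of one experiment. DHA was given in ethanol as a complex with bovine serum albumin and PCA in acidified dimethyl sulfoxide, and all cells were in serum-free medium, with albumin and vehicle also given to Ctrl. The 3 differences share no sample, and all cells come from a single line.

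Cells that take up polyunsaturated fatty acids are known to lower the synthesis of sterols and fatty acids. Both pathways are driven by the sterol regulatory element-binding proteins (SREBPs), membrane-bound transcription factors that are cut free when membrane cholesterol is low, and polyunsaturated fatty acids are known to reduce the amount of SREBP-1 in liver cells. Polyunsaturated fatty acids also oxidise readily, and NRF2, a transcription factor released by electrophiles and oxidants, switches on genes of glutathione and aldehyde metabolism. Metallothioneins are small cysteine-rich proteins that bind zinc and copper, and their genes respond to metals and oxidants.

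Total counts ran from 4659744 to 9640766 with DHA (median 8672720, n = 9) and from 5890657 to 10788964 without (median 8662580, n = 9). Levels are given as CPM, read counts scaled by the library's total after TMM normalization. Of 18932 genes, 11872 had enough reads to be tested. The 10 hepatocyte and hepatoma markers summed to 55800 to 62300 CPM without DHA and 54900 to 64800 CPM with it, and 0 of the 10 passed the test. Endothelial markers summed to at most 0.914 CPM, fibroblast markers to at most 10.9 and adipocyte markers to at most 2.15. Leukocyte markers summed to 872 to 1240 CPM without DHA and 808 to 1260 with it, cholangiocyte markers to 305 to 433 and 324 to 478 CPM, and none of the 3 leukocyte and 2 cholangiocyte markers with enough reads passed the test. Replicate 1 of DHA + PRO stood apart from the other libraries, with a root mean square deviation of 0.215 (log2) from its fitted values, against 0.0822 to 0.156 in the other 17. The deviations of each library from the mean of all 18, which still hold group and replicate effects, were set against the genes' GC content. Spearman's rho was -0.765 for replicate 1 of DHA + PRO, across genes, which are not independent replicates. Over the other 17 libraries rho ran from -0.555 (replicate 1 of Ctrl) to 0.722 (replicate 3 of DHA + PCA). The library numbers fell into an earlier series of 11 libraries and a later series of 7. The later series held replicate 3 of every group and replicate 2 of DHA + PRO. After removal of group means, replicate 2 of DHA + PRO had a mean r of 0.0352 with replicate 2 of the other groups. With their replicate 3 its mean r was 0.273, so the matched differences below pair this library by its number only. All 18 libraries were part of every pooled value below.

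DHA lowered more genes than it raised at 6 h. With the replicate number as a factor, 64 of 11872 genes changed (0.539%), which means an adjusted p not above 0.05 with average log2 CPM over 0. Of these, 44 fell (0.371% of all tested) and 20 rose (0.168%), with log2 fold changes between 0.19 and 0.81 in size. The test was edgeR's quasi-likelihood F test with Benjamini-Hochberg adjustment over all genes tested, which is the source of every adjusted p below. Over all genes tested the median was -0.00147 (log2), and 762 genes (6.42%) had an unadjusted p under 0.05. Without the replicate factor 24 genes passed, 18 lower and 6 higher, all of them among the 64. The genes that fell were led by sterol synthesis and LDL uptake, and those that rose by members of the NRF2 list and metallothioneins. Without replicate 1 of DHA + PRO the count was 461, 339 lower and 122 higher, with all 64 included.

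**Figure D1:**
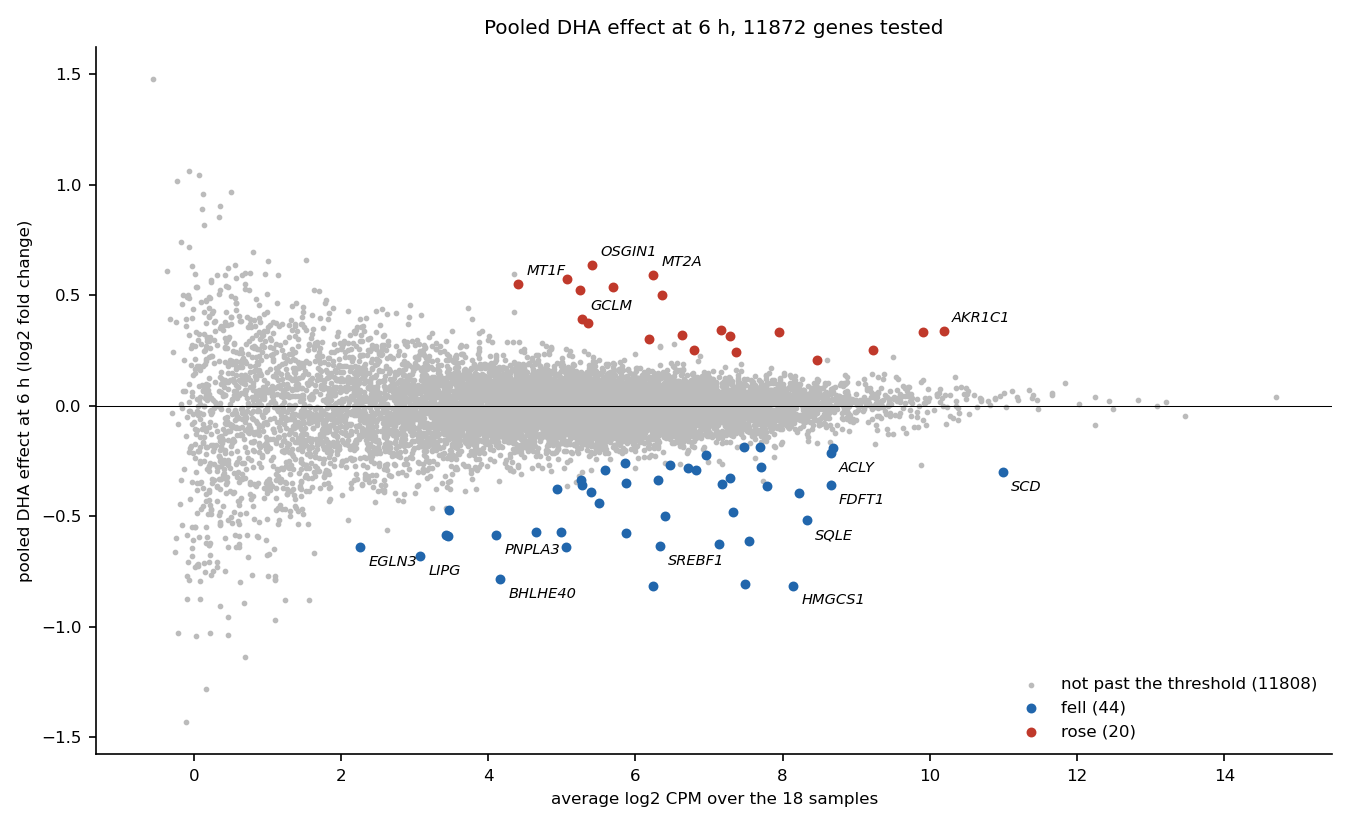
Pooled DHA effect at 6 h (log2 fold change) against the average log2 CPM over the 18 samples, 1 point for each of 11872 genes. The 44 genes that fell are blue and lie down to -0.81, the 20 that rose are red and reach 0.64, and the grey genes did not pass the threshold.

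Promoter sequences from RefSeq (GRCh38.p14) were at hand for 53 of the 64 genes, each from 250 bases before to 50 bases after the start, with 1 entry per gene. They are shown because the genes below moved together, and the 3 largest falls with an entry among genes of sterol synthesis and traffic come first. In these, capitals mark the NF-Y box CCAAT, the GC box GGGCGG and the letters TCACNCCA of a sterol regulatory element, on either strand. Each line gives the 200 bases before the start, of HMGCS1 on chromosome 5 (43313413 to 43313612, minus strand), MSMO1 on chromosome 4 (165327469 to 165327668, plus strand) and STARD4 on chromosome 5 (111512536 to 111512735, minus strand).
HMGCS1: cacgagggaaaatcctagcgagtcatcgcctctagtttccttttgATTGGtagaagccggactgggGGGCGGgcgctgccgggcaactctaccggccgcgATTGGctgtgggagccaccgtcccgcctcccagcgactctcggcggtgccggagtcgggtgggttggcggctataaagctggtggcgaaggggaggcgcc
MSMO1: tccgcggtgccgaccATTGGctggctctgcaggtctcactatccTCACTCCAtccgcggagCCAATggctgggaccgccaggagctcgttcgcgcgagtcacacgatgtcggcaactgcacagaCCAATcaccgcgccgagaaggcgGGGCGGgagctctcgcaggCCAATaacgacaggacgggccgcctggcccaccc
STARD4: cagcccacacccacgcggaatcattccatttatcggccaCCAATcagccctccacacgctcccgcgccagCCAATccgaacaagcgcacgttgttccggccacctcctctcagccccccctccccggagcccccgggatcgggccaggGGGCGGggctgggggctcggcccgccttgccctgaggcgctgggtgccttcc

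CCAAT was found in the promoters of 23 of 37 genes that fell (62.2%) and of 9 of 12 sterol synthesis genes that fell (75%), against 36.9% of the promoters of genes tested and 35.7% of all in the table. It was also found in 8 of 16 genes that rose (50%) and in 5 of 9 genes of the NRF2 list that rose (55.6%). GGGCGG was found in 86.5% of the promoters of genes that fell and 70.5% of those of genes tested. The longer letters TCACNCCAC were found in 1 of 37, that of MID1IP1, and in 1.13% of the promoters of genes tested. The shorter TCACNCCA, chosen after the data were seen, was found in 3 of 37 promoters of genes that fell (8.11%), those of MID1IP1, MSMO1 and MVK. It was found in 3.42% of the promoters of genes tested. Where the 2 sets of letters overlap, the longer contains the shorter. These matches describe letters in a short window and no binding was measured.

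Among the genes that rose, 3 promoters are shown, and capitals mark the core TGACNNNGC of the antioxidant response element in TXNRD1 and GCLM and the cores TGCACNC and TGCGCNC of the metal response element in MT2A, on either strand. The metal response letters were chosen after the data were seen. TXNRD1 is on chromosome 12 (104215579 to 104215778, plus strand), GCLM on chromosome 1 (93909431 to 93909630, minus strand) and MT2A on chromosome 16 (56608384 to 56608583, plus strand).
TXNRD1: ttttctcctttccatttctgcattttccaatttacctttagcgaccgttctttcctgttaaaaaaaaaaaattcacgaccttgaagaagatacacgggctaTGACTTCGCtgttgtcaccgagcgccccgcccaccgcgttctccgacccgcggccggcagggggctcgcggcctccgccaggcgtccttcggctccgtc
GCLM: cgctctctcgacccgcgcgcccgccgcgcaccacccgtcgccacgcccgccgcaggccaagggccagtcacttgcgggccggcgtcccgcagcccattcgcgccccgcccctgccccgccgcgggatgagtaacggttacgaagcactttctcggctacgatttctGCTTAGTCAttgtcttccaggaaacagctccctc
MT2A: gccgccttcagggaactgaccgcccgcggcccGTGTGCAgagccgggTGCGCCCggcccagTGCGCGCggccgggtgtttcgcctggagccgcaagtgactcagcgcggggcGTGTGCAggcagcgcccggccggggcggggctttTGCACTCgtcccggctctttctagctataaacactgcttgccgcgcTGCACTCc

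TGACNNNGC was found in 6 of 16 promoters of genes that rose (37.5%), namely CREB3L3, GCLM, MT1X, MT2A, TXNRD1 and UNKL, and in 15.3% of the promoters of genes tested. Among the genes of the NRF2 list that rose it was found in 2 of 9 (22.2%). TGCACNC was found in 6 of the 16 (37.5%), namely AKR1C3, GCLC, MT1X, MT2A, OSGIN1 and SRXN1, and in 11.3% of the promoters of genes tested. Among the genes of the NRF2 list that rose it was found in 4 of 9 (44.4%). TGCGCNC was found in 8 of the 16 (50%) and in 31.2% of the promoters of genes tested. The stretch shown for MT2A held 4 matches of TGCACNC and 2 of TGCGCNC.

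Of the 22 genes of the sterol synthesis list, 16 fell, none rose and the median log2 fold change was -0.36, against -0.00147 over all genes. Every list count here and below is to be read beside the 0.539% of all genes tested that passed. They span the pathway, from ACAT2 and HMGCS1, which build HMG-CoA from acetyl-CoA, through MVK, MVD and IDI1 to FDFT1, SQLE and LSS, which make squalene and lanosterol. The last steps to cholesterol were represented by CYP51A1, MSMO1, NSDHL, HSD17B7, SC5D and DHCR7, and GGPS1 lies on the side branch to geranylgeranyl diphosphate. The 6 that did not pass, with FDPS, TM7SF2, LBR, EBP and PMVK among them, had log2 fold changes from -0.17 (FDPS) to 0.10 (PMVK).

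HMGCS1, the cytosolic synthase that makes HMG-CoA (NM_001098272, hg19 chromosome 5, 43287572 to 43313614, minus strand), lay between 331.1 and 385.4 CPM without DHA (median 358.6) and between 181.9 and 231.2 CPM with it (median 201.8). The 2 sets of 9 samples did not overlap, and every sample with DHA was well below every sample without. HMGCS1 fell by 0.81 on the log2 scale (SE 0.0495, adjusted p = 6.58e-10), the lowest adjusted p of all genes, and its mean level with DHA was 56.9% of that without. The 9 differences between samples matched by background and replicate number ran from -1.08 to -0.52. Both ends were in the PRO background, -1.08 in replicate 2 and -0.52 in replicate 1.

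MSMO1, which starts the removal of the methyl groups at carbon 4 of the sterol ring, lay between 197.3 and 268.9 CPM without DHA (median 223.7) and between 108.8 and 169.7 CPM with it (median 126.5), also without overlap. The log2 fold change of MSMO1 was -0.81 (SE 0.0521, adjusted p = 1.08e-09).

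IDI1, which isomerises isopentenyl diphosphate, and SQLE, the squalene epoxidase, had log2 fold changes of -0.62 (SE 0.0551) and -0.52 (SE 0.0424). Neither overlapped between the 2 sets of samples. FDFT1, the squalene synthase, fell by 0.36 on the log2 scale (SE 0.0406, adjusted p = 9.7e-06), from a median of 452.8 to 352.4 CPM, and its sets overlapped. The smallest fall of the list was that of ACAT2, whose log2 fold change was -0.19 (SE 0.0430, adjusted p = 0.0439). Over 33 other settings ACAT2 lost its call in 23, DHCR7 in 15 and NSDHL in 12. ACAT2 overlaps TCP1 on the opposite strand, and since the library kit did not mark strand their reads cannot be told apart in the overlap. TCP1 had a log2 fold change of 0.03.

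Without the replicate factor 10 of the 22 passed, all of them lower. Among these were HMGCS1, MVK, MVD, IDI1, FDFT1, SQLE, CYP51A1, MSMO1 and HSD17B7. Without replicate 1 of DHA + PRO 17 passed, with LBR as the addition, and the median was -0.40.

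**Figure D2:**
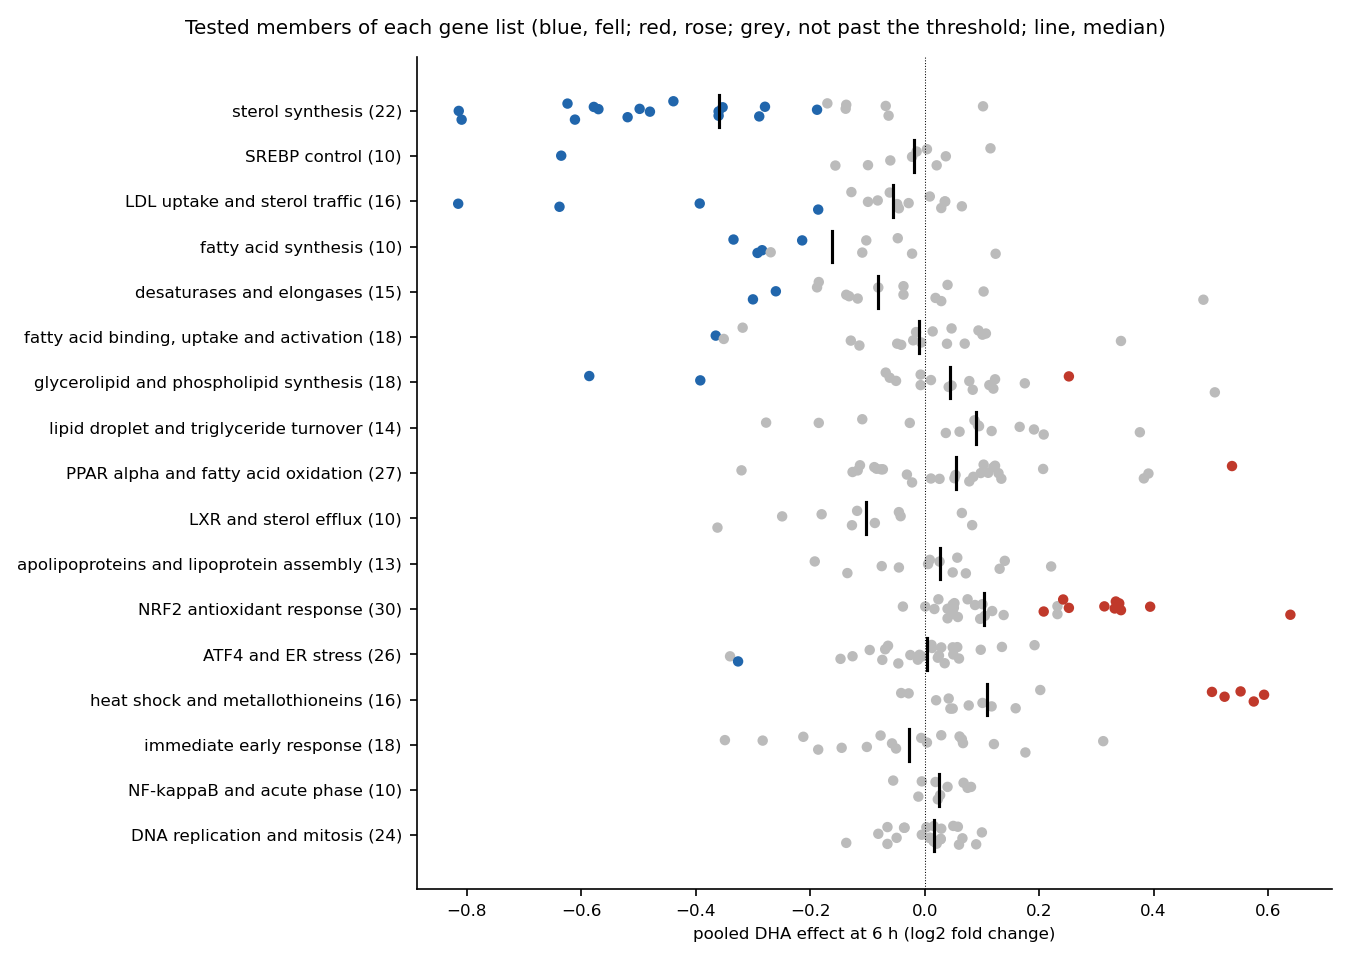
Pooled DHA effect at 6 h (log2 fold change) of each tested member of 17 gene lists, with the number of tested members in parentheses and the median as a line. Blue points fell and red points rose. In sterol synthesis 16 of 22 points are blue around a median of -0.36. The red points gather in the NRF2 list (10 of 30) and in the list of heat shock and metallothionein genes (5 of 16, all metallothioneins).

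Genes of LDL uptake and sterol traffic changed in 4 of 16 cases, all lower, with a median of -0.055 over the list. STARD4, which carries cholesterol between membranes, had a log2 fold change of -0.64 (SE 0.0680, adjusted p = 3.79e-06), from 34.89 to 42.97 CPM without DHA to 21.9 to 29.59 CPM with it, without overlap. TMEM97 had a log2 fold change of -0.19 (SE 0.0425, adjusted p = 0.0444), close to the threshold. It lost its call in 24 of 33 other settings, among them the fits without the replicate factor and with DESeq2 size factors. TMEM97 overlaps IFT20 on the opposite strand (11.7 CPM, -0.08), so its reads may include those of IFT20. The cholesterol transporter NPC1L1, in no list and named after its values were seen, had a log2 fold change of -0.27 (adjusted p = 0.0369).

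In the list of SREBP control 1 of 10 genes changed. SREBF1, which encodes SREBP-1 (hg19 chromosome 17, 17714663 to 17740325, minus strand), lay between 78.62 and 117.4 CPM without DHA (median 93.36) and between 54 and 71.05 CPM with it (median 63.24). The 2 sets did not overlap, and the log2 fold change was -0.63 (SE 0.0674, adjusted p = 3.79e-06). By background SREBF1 passed against PRO (-0.758, adjusted p = 0.00386) and PCA (-0.685, adjusted p = 0.00751). It did not pass against Ctrl (-0.463, adjusted p = 0.239), and the difference between the backgrounds did not pass either (adjusted p = 0.996). SREBF1 overlaps RAI1 on the opposite strand (55 CPM, log2 fold change 0.05), and their reads cannot be told apart in the overlap. SREBF2, which encodes SREBP-2, lay between 209 and 243.4 CPM without DHA and between 169.8 and 238 CPM with it, with a log2 fold change of -0.16 (SE 0.0507, adjusted p = 0.475) that did not pass. The difference between the 2 genes was not tested. INSIG1 had too few reads in the deposited table to be tested.

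**Figure D3:**
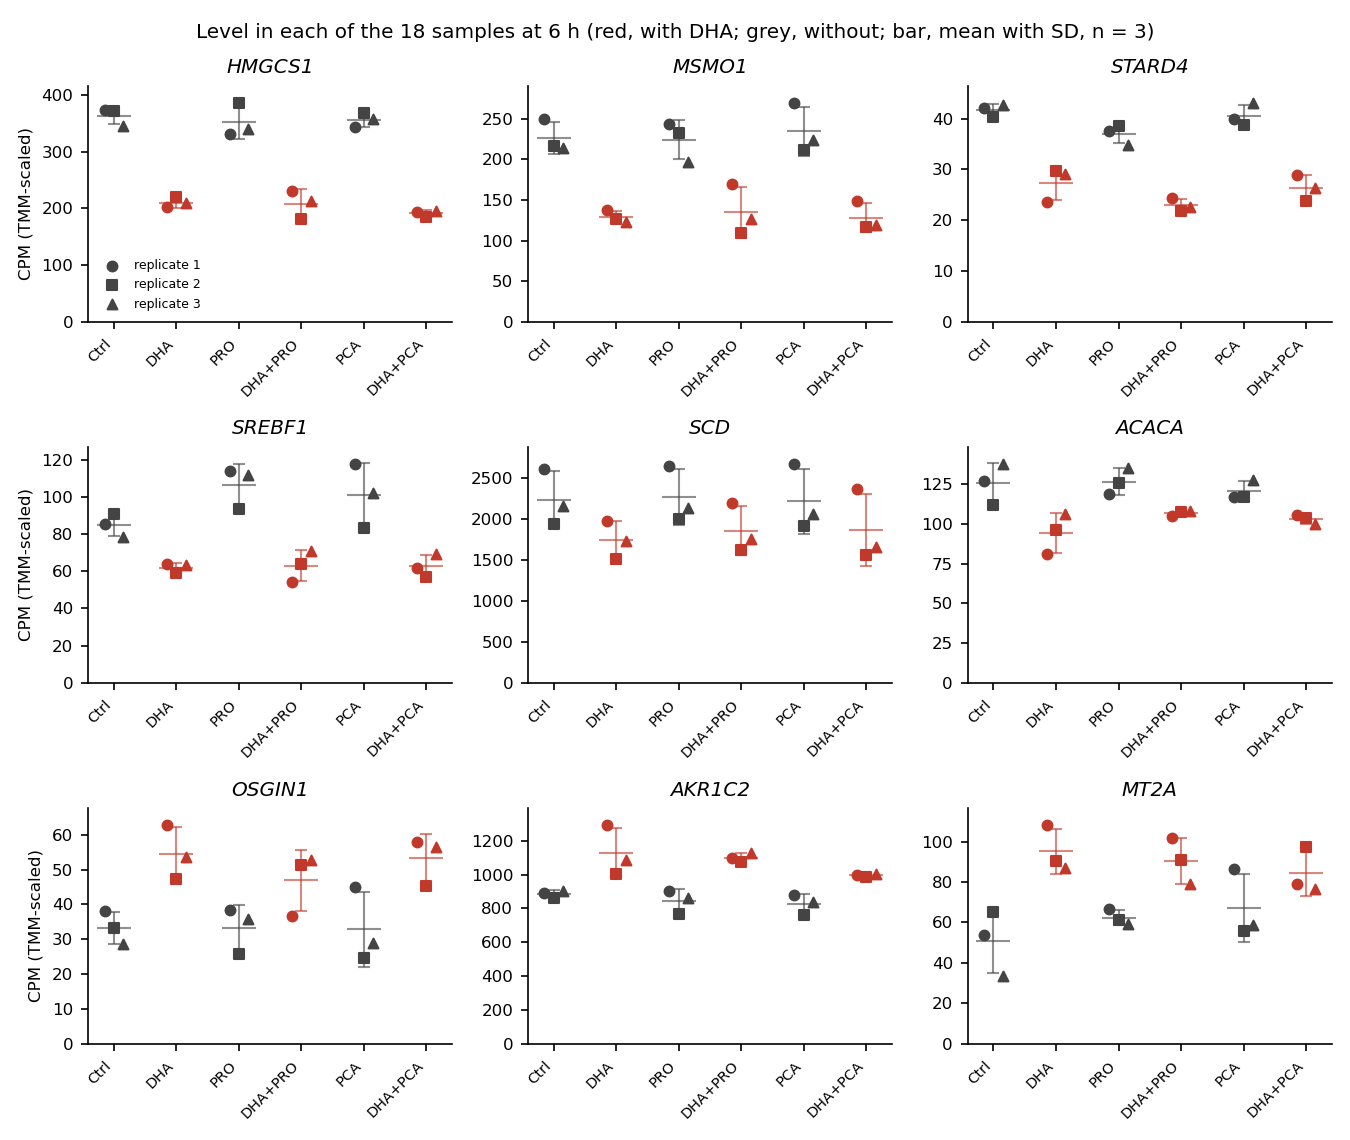
CPM (TMM-scaled) of 9 genes in each of the 18 samples of 6 h, by group, with replicates as symbols and the mean with SD as a bar (n = 3). HMGCS1, MSMO1, STARD4, SREBF1 and ACACA are lower in all 9 samples with DHA (red) than in any without (grey), SCD is split by replicate 1 in all 6 groups, AKR1C2 is higher in all 9 samples with DHA, and OSGIN1 and MT2A overlap.

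In the list of fatty acid synthesis 4 of 10 genes fell, none rose and the median was -0.16. ACACA, the acetyl-CoA carboxylase that commits carbon to fatty acids, lay between 112.1 and 137.3 CPM without DHA and between 80.79 and 108.3 CPM with it. Its sets did not overlap, with a log2 fold change of -0.29 (SE 0.0518, adjusted p = 0.00344). ACLY and ACSS2, which supply cytosolic acetyl-CoA from citrate and acetate, had log2 fold changes of -0.21 (SE 0.0388) and -0.28 (SE 0.0470). MID1IP1, an activator of acetyl-CoA carboxylase, had a log2 fold change of -0.33 (SE 0.0749) and lost its call in 16 of 33 other settings.

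FASN, the fatty acid synthase, lay between 776.9 and 1276 CPM without DHA and between 658.8 and 1053 CPM with it. Its log2 fold change of -0.27 (SE 0.0665) had an adjusted p of 0.0839 and did not pass, although all 9 matched differences were below 0, from -0.76 to -0.01. With an offset for GC content together with the replicate factor, chosen after the data were seen, its value was -0.34 (SE 0.0391, adjusted p = 2.22e-06), and it also passed without replicate 1 of DHA + PRO. Without the replicate factor 0 of the 10 genes passed.

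Of 15 desaturases and elongases 2 fell. SCD, the stearoyl-CoA desaturase, had the highest CPM of the 64 genes, between 1920 and 2668 without DHA (median 2139) and between 1514 and 2370 with it (median 1731). Replicate 1 was the highest sample in all 6 groups, at 2617, 2653 and 2668 CPM without DHA and 1983, 2200 and 2370 CPM with it, so that the sets overlapped. Within replicate numbers all 9 differences were below 0, from -0.40 to -0.17, and the log2 fold change was -0.30 (SE 0.0368, adjusted p = 3.72e-05). The adjusted p was 0.963 without the replicate factor. ELOVL6, which extends palmitate, had a log2 fold change of -0.26 (SE 0.0562, adjusted p = 0.0269), and it lost this call in 22 of 33 other settings (adjusted p = 0.752 without the replicate factor).

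Of 18 genes of fatty acid binding, uptake and activation 1 fell, the acyl-CoA synthetase ACSL3 (log2 fold change -0.37, SE 0.0520, adjusted p = 0.000285). In glycerolipid synthesis 2 of 18 fell and 1 rose. LPIN1, a phosphatidate phosphatase, had a log2 fold change of -0.39 (SE 0.0661, adjusted p = 0.00204) and PNPLA3, a lipase of lipid droplets, of -0.59 (SE 0.0920, adjusted p = 0.000942). LPCAT1, which rebuilds phosphatidylcholine, rose by 0.25 (SE 0.0490, adjusted p = 0.00886). In the fit without the replicate factor ACSL3 still passed (adjusted p = 0.0240), and LPIN1 (0.0506), PNPLA3 (0.0669) and LPCAT1 (0.0669) did not.

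None of 14 lipid droplet genes, 10 genes of the LXR sterol sensor and efflux, or 13 apolipoprotein genes passed, with medians of 0.09, -0.10 and 0.03. As 0.539% of all genes tested passed, lists of this size would often hold none. PLIN2, the coat protein of lipid droplets, lay between 148.7 and 175.4 CPM without DHA and between 161.6 and 199.6 CPM with it (log2 fold change 0.19, SE 0.0472, adjusted p = 0.0839). It passed with the GC-content offset, at 0.20 (SE 0.0446). ABCA1, the cholesterol exporter, had a log2 fold change of -0.25 (SE 0.0825, adjusted p = 0.484). NR0B2 (-0.18) and the lipid droplet enzyme HSD17B11 (-0.11) did not pass either.

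Of 27 genes of PPAR alpha, the fatty acid receptor of liver cells, and of fatty acid oxidation 1 rose and the median was 0.05. This was CREB3L3, a membrane-bound transcription factor of the liver, which lay between 27.94 and 59.71 CPM without DHA (median 39.01) and between 46.77 and 85.21 CPM with it (median 59.74). CREB3L3 rose by 0.54 on the log2 scale (SE 0.101, adjusted p = 0.00578), and the mean of its matched differences was 0.22 in replicate 1, 0.69 in replicate 2 and 0.72 in replicate 3. Its adjusted p was 0.261 without the replicate factor. CPT1A, which admits fatty acids to mitochondria, had a log2 fold change of 0.39 (SE 0.0999, adjusted p = 0.107) and did not pass. SLC25A20 and ACADVL, also of mitochondrial oxidation, had values of 0.21 and 0.12 that did not pass.

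Of the 30 genes of the NRF2 list, 10 rose, none fell and 29 had a log2 fold change above 0, with a median of 0.10. OSGIN1, an oxidative stress inducible growth inhibitor (hg19 chromosome 16, 83986827 to 83999937, plus strand), lay between 24.63 and 44.89 CPM without DHA (median 33.13) and between 36.71 and 62.67 CPM with it (median 52.65). The lowest sample with DHA was replicate 1 of DHA + PRO, which was below its matched sample by 0.06 (log2), while the other 8 differences were above 0. The log2 fold change was 0.64 (SE 0.0975, adjusted p = 0.000747), and it ran from 0.40 to 0.80 over the alternatives.

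GCLM and GCLC, the subunits of the enzyme that starts glutathione synthesis, rose by 0.39 (SE 0.0822, adjusted p = 0.0190) and 0.24 (SE 0.0505, adjusted p = 0.0190). SRXN1, which repairs peroxiredoxins, rose by 0.31 (SE 0.0526, adjusted p = 0.00200), and TXNRD1, the thioredoxin reductase, by 0.21 (SE 0.0463, adjusted p = 0.0356). SQSTM1, the autophagy receptor p62, rose by 0.33 (SE 0.0504, adjusted p = 0.000673) and overlaps MGAT4B on the opposite strand (0.13, adjusted p = 0.757). For these 5 genes all 9 matched differences were above 0. Over 33 other settings TXNRD1 lost its call in 20, GCLM in 12, GCLC in 10, SQSTM1 in 4 and SRXN1 in 2.

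Aldo-keto reductases, which reduce aldehydes and ketones including products of lipid peroxidation, made up 4 of the list's 10 rises. AKR1C2 (hg19 chromosome 10, 5029968 to 5060225, minus strand) lay between 762.8 and 902.5 CPM without DHA (median 861.1) and between 982.6 and 1290 CPM with it (median 1074). It and AKR1B10 were the only genes that rose whose sets of 9 samples did not overlap. AKR1C2 rose by 0.33 (SE 0.0409, adjusted p = 3.73e-05), AKR1B10 by 0.34 (SE 0.0534), AKR1C1 by 0.34 (SE 0.0477), and AKR1C3 by 0.25 (SE 0.0438). AKR1C4, of the same cluster but outside the lists, rose by 0.32 (SE 0.0580). The AKR1C genes, and AKR1B10 and AKR1B15, are close in sequence, so reads may be split between them. AKR7A3, another aldo-keto reductase named after its values were seen, had a log2 fold change of -0.97 that did not pass (adjusted p = 0.117).

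NQO1, a classical NRF2 target, lay between 658 and 920.4 CPM without DHA and between 707.3 and 1034 CPM with it and did not pass (log2 fold change 0.09, SE 0.0387, adjusted p = 0.735). HMOX1, the heme oxygenase, had a value of 0.23 (SE 0.0662, adjusted p = 0.232), and FTH1, EPHX1 and TALDO1 had values from 0.10 to 0.14 that did not pass, as did PIR at 0.23 (adjusted p = 0.752). Without the replicate factor 4 of the 30 genes rose, OSGIN1, AKR1B10, AKR1C1 and AKR1C2.

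Of 16 heat shock and metallothionein genes 5 rose, all metallothioneins, and the median was 0.11. MT2A (hg19 chromosome 16, 56642478 to 56643409, plus strand) measured 53.96, 65.14 and 33.59 CPM in Ctrl, 66.8, 61.06 and 59.38 CPM in PRO and 86.32, 55.63 and 58.94 CPM in PCA. With DHA it measured 108, 90.47 and 87 CPM, with DHA + PRO 101.8, 91.1 and 78.97 CPM, and with DHA + PCA 79, 97.41 and 76.75 CPM. Replicate 3 of Ctrl was the lowest and replicate 1 of PCA the highest of the samples without DHA, and only the latter overlapped the samples with DHA.

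MT2A rose by 0.59 (SE 0.0842, adjusted p = 0.000285), MT1G by 0.57 (SE 0.0935, adjusted p = 0.00147), MT1F by 0.55 (SE 0.0879, adjusted p = 0.00111), MT1X by 0.52 (SE 0.0885, adjusted p = 0.00204) and MT1E by 0.50 (SE 0.0673, adjusted p = 0.000130). Of these, MT1X and MT2A passed without the replicate factor. Without replicate 3 of Ctrl all 5 still passed, at 0.54, 0.52, 0.56, 0.49 and 0.46. Against Ctrl the rise was between 0.79 (MT1E) and 0.90 (MT2A), and against PCA it was between 0.17 (MT1F) and 0.39 (MT1E). The difference between the backgrounds had unadjusted p-values from 0.0157 (MT1F) to 0.0739 (MT1G) and an adjusted p of 0.996 for each, so it did not pass. Metallothionein genes are near-identical and clustered on 1 chromosome, so their reads may be split between them. The heat shock genes of the list had values from -0.04 to 0.12 and did not pass.

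In the ATF4 and ER stress list 1 of 26 genes fell, the pseudokinase TRIB3 (log2 fold change -0.33, SE 0.0549, adjusted p = 0.00204; 0.792 without the replicate factor), and the list's median was 0.00. None of 18 immediate early, 10 NF-kappaB and acute phase, or 24 DNA replication and mitosis genes passed, with medians of -0.03, 0.03 and 0.02. With 0.539% of all genes tested passing, lists of this size would often hold none. The absence of calls therefore does not show that DHA spared these genes.

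Outside the lists, BHLHE40, a circadian and hypoxia-responsive repressor, fell by 0.79 on the log2 scale (SE 0.0825, adjusted p = 3.7e-06). It lay between 18.67 and 25.63 CPM without DHA and between 10.73 and 15.98 CPM with it, without overlap. LIPG, the endothelial lipase, had a log2 fold change of -0.68 (SE 0.105, adjusted p = 0.000819), with -0.24 in the PRO background against -0.84 and -0.96 in the others. EGLN3, an oxygen-sensing prolyl hydroxylase, had a value of -0.64 (SE 0.148) at the threshold (adjusted p = 0.05) and a level of at most 6.299 CPM, and it passed in 8 of 33 alternative settings.

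The zinc importer SLC39A10 had a log2 fold change of -0.38 (SE 0.0677, adjusted p = 0.00374), with 32.33 to 37.74 CPM without DHA and 22.68 to 30.73 CPM with it. The chemokine CCL20 had a value of -0.57 (SE 0.115), CFAP44, a cilia protein, of -0.59 (SE 0.106), and PPP1R10, a regulator of protein phosphatase 1, of -0.33 (SE 0.0578). CLCN6, a chloride and proton exchanger, had a value of -0.35 (SE 0.0634), and its reads may include those of an overlapping gene. CCDC152, at -0.59 (SE 0.119), overlaps the far more abundant SEPP1 (selenoprotein P, 327 CPM, -0.11, adjusted p = 0.74) on the opposite strand, and their reads cannot be told apart there. RABL2A, at -0.47 (SE 0.105), has a near-identical copy, and it lost its call in 20 of 33 other settings. The 3 fallers left in no list, named after their values were seen, were NPC1L1 above, HK2 (-0.22), a hexokinase, and CYB5B (-0.19), a cytochrome b5. Over 33 other settings NPC1L1 lost its call in 16, and HK2 and CYB5B in 22 each. Beside AKR1C4, UNKL (0.38, SE 0.0694) and TSKU (0.30, SE 0.0610) rose. UNKL overlaps GNPTG on the opposite strand (30.3 CPM, 0.05), and their reads cannot be told apart there. Of these genes outside the lists, BHLHE40, CFAP44 and SLC39A10 also passed without the replicate factor.

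Of the 64 genes, 51 had all 9 matched differences on one side of 0, as did 1.04% of all genes tested, and 14 (12 that fell and 2 that rose) did not overlap between the samples with and without DHA, as did 0.126% of all. The pooled mean that chose the 64 favours both. For a single gene with 9 matched differences of one sign, the exact two-sided sign-flip permutation test gives 0.00391, the smallest p it can give. This test flips each difference on its own, although the 9 come from 3 experiments and those of one experiment may not be independent.

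Within each background fewer genes passed. DHA against Ctrl changed 18 genes (0.152%), DHA + PRO against PRO 10 (0.0842%) and DHA + PCA against PCA 12 (0.101%). In total 21 genes passed in any background, all of them among the 64, 7 passed in all 3, and 43 of the 64 passed in none alone. The difference of the DHA effect between the 3 backgrounds was tested in the same fit, and 0 genes passed (lowest adjusted p = 0.996), with 270 (2.27%) at an unadjusted p under 0.05 and 6 of the 64 among these. The 6 were LIPG, ELOVL6, MT1E, MT1X, MT1F and MT2A. ELOVL6 had log2 fold changes of -0.49 against Ctrl, -0.06 against PRO and -0.23 against PCA (unadjusted p = 0.0167). Without the filter on low counts 2 genes passed. This does not show that DHA acted alike in each background.

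**Figure D4:**
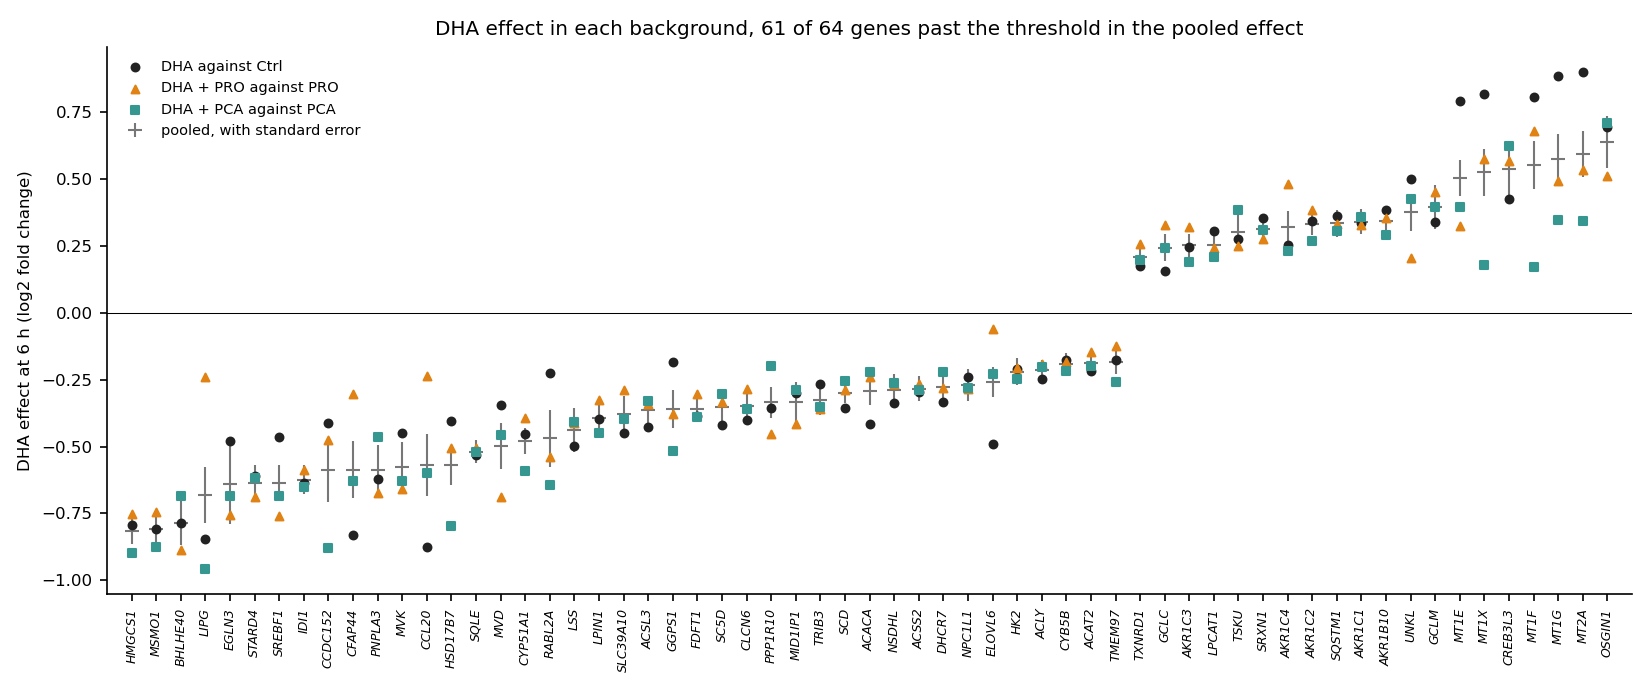
DHA effect at 6 h (log2 fold change) of 61 of the 64 genes in each of the 3 backgrounds (symbols) and pooled with its standard error (grey), in order of the pooled value. The symbols of HMGCS1, SQLE and AKR1C1 lie close together, while those of the metallothioneins spread from 0.17 to 0.90 with the highest value always against Ctrl.

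The effect at 24 h was estimated in a joint fit of all 36 samples, whose samples of 24 h are others than those of 6 h. In this fit 82 of 12046 genes (0.681%) passed at 6 h and 328 (2.72%) at 24 h. Of the 64 genes, 62 had the same sign at 24 h and 52 also passed there, 35 that fell and 17 that rose. The share of all genes tested with the same sign at both times was not computed. The difference between the times passed for 20 genes of all tested (0.166%), with 784 (6.51%) at an unadjusted p under 0.05, and for 8 of the 64. Without the replicate factor 0 differences passed.

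SCD, ACSS2, ACLY and FDFT1 had larger falls at 24 h than at 6 h. SCD had a log2 fold change of -0.29 at 6 h and -0.70 at 24 h (difference -0.40, SE 0.0466, adjusted p = 2.1e-06), and ACSS2 of -0.28 and -0.77 (difference -0.49, SE 0.0597, adjusted p = 3.56e-06). ACLY went from -0.21 to -0.51 (adjusted p = 0.000696) and FDFT1 from -0.35 to -0.59 (adjusted p = 0.0245). FASN had -0.26 and -0.66, a difference that did not pass (-0.40, SE 0.103, adjusted p = 0.147). The differences of ELOVL6 (-0.30, adjusted p = 0.108), ACACA (-0.10, adjusted p = 0.870) and MID1IP1 (0.00) did not pass either.

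Among the largest falls of 6 h, some were no larger at 24 h. They were picked by their values at 6 h, which by itself favours smaller values at 24 h. HMGCS1 had -0.81 and -0.72 at 6 h and 24 h (difference 0.08, SE 0.0862, adjusted p = 0.936) and STARD4 -0.63 and -0.40 (difference 0.23, SE 0.0929, adjusted p = 0.643), neither of which passed. MSMO1 had -0.80 at 6 h and -0.48 at 24 h, and this difference of 0.32 passed (SE 0.0672, adjusted p = 0.0233). CFAP44 had -0.58 and 0.07 (difference 0.66, SE 0.126, adjusted p = 0.00769), and the falls of BHLHE40 (-0.78 and -0.22) and EGLN3 (-0.63 and -0.14) had differences that did not pass.

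Among the genes that rose, AKR1B10 went from 0.35 at 6 h to 0.88 at 24 h (difference 0.53, SE 0.0810, adjusted p = 0.000314) and AKR1C2 from 0.34 to 0.80 (difference 0.46, SE 0.0789, adjusted p = 0.00215). OSGIN1 had 0.65 and 0.71, and MT2A had 0.60 and 0.43, differences that did not pass.

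**Figure D5:**
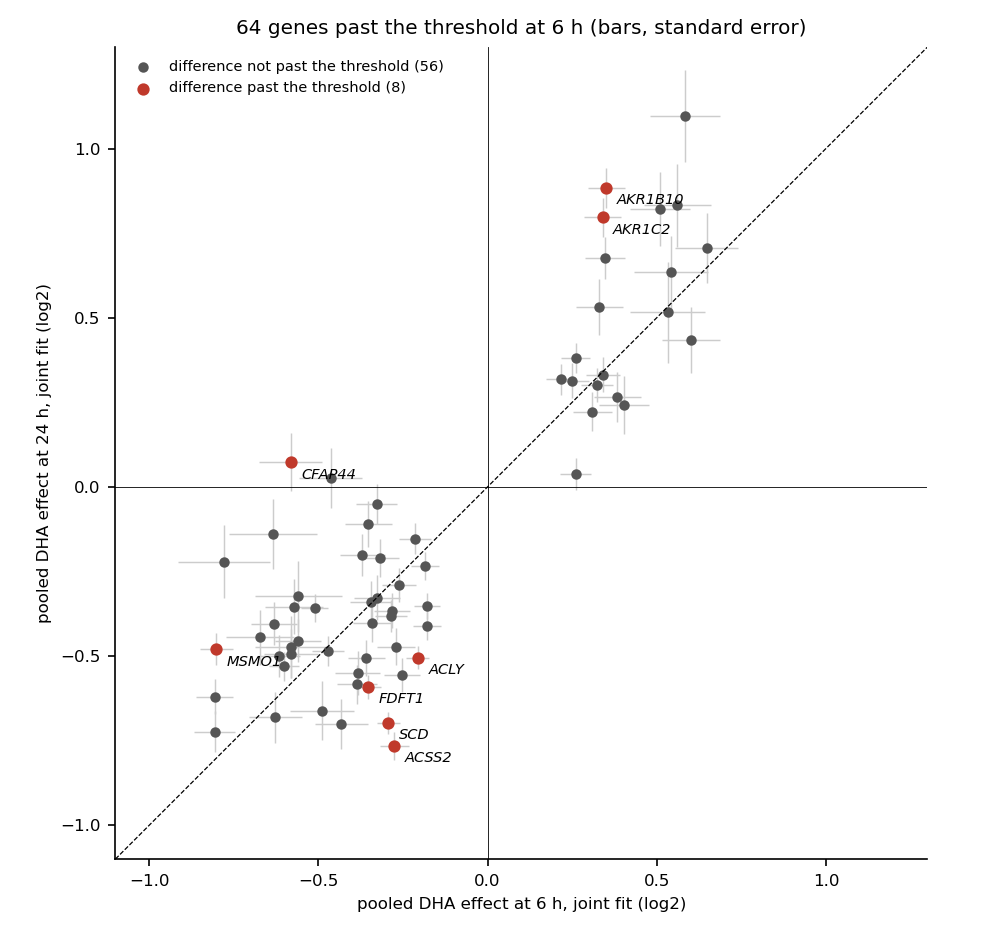
Pooled DHA effect at 24 h against that at 6 h (log2 fold change, joint fit of 36 samples, bars standard errors) of the 64 genes, with the line of equal effects dashed. The 8 genes in red differ between the times, with SCD, ACSS2, ACLY and FDFT1 below the line, MSMO1 and CFAP44 above it at falls of 6 h, and AKR1B10 and AKR1C2 above it at rises.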

How the data were processed

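The data are RNA-seq of HepG2 cells. For each experiment the authors combined RNA from 3 culture replicates, made TruSeq libraries, used STAR for alignment to hg19 and counted reads with iRNA-seq. The deposited table holds raw counts per RefSeq gene that the authors did not normalize. The deposited table also gives coordinates and a counted length (an other unit, not used for any value printed), and 1 was added to the starts, which count from 0. Groups and replicate numbers came from the labels, and the doses from the study's methods. No sample of 6 h was left out, and no pair of libraries was a duplicate (lowest chi-square per degree of freedom 1.89 over 153 pairs).

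Counts of the 18 samples of 6 h were fitted with edgeR 4.0.16 in R 4.3.3 (filterByExpr, TMM, quasi-likelihood F test) with a mean per group and the replicate number as an additive factor, with Benjamini-Hochberg adjustment across the genes tested. Genes were called where the adjusted p was not above 0.05 and average log2 CPM exceeded 0. The standard error is the size of the log2 fold change divided by the square root of F. Differences between times used a joint fit of 36 samples with the replicate number within each time. The labels do not say what a shared number means beyond an independent culture, and p-values measure the spread between these samples. The script was tested on simulated data. Intervals and errors cover these samples only, and reads were not counted as molecules.

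The samples, gene lists and rules were chosen with earlier results of these data known. Named are the list members that passed, the 10 largest falls and rises outside the lists, the genes that the study names and members of the PPAR alpha, NRF2, LXR and lipid droplet lists at an unadjusted p under 0.05, and other names are marked. Results of some single genes are not reported here. Alternatives were other scalings, DESeq2 1.42.0, limma 3.58.1 (voom), no filter on low counts, no replicate factor, the series of library numbers, an additive model and leaving out libraries. A GC-content offset and fits by series were added after the data were seen. Figures used matplotlib.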

Additional observations from a re-analysis of the deposited data

Results flagged for a closer look

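In 8 of 128 sets of 9 samples (a gene that changed, with or without DHA) 1 sample lay far from the others by Dixon's test on log2 CPM, where chance gives about 5% or 6 sets. The ratio of the gap to the whole range was 0.594 for ACACA (replicate 1 of DHA, lowest at 80.79 CPM), 0.686 for NSDHL (replicate 3 of PRO, highest at 62.26 CPM) and 0.553 for GCLC (replicate 1 of DHA + PRO, highest at 223.3 CPM). It was 0.5 for AKR1C2 (replicate 1 of DHA, highest at 1290 CPM) and 0.534 for GCLM (replicate 1 of PCA, lowest at 24.58 CPM). For metallothioneins it was 0.494 for MT1E and 0.502 for MT2A (replicate 3 of Ctrl, lowest at 40.17 and 33.59 CPM) and 0.521 for MT1X (replicate 1 of DHA + PCA, lowest at 26.22 CPM).

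The DHA effect differed between 24 h and 6 h for 8 of the 64 genes in the joint edgeR fit. The difference (log2, 24 h minus 6 h) was 0.321 for MSMO1, 0.655 for CFAP44, -0.238 for FDFT1, -0.405 for SCD, -0.49 for ACSS2, -0.299 for ACLY, 0.457 for AKR1C2 and 0.533 for AKR1B10.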

How the results depend on the processing

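The count of 64 genes was 24 without the replicate block (all among the 64), 96 with the block and a GC-content offset (all 64 included) and 207 with both but without replicate 1 of DHA + PRO (63 of the 64 included). It ran from 23 to 461 when replicates were left out, with 235, 33 and 23 without all samples of replicate 1, 2 or 3, and 461 without replicate 1 of DHA + PRO alone, while leaving out any other single library gave 48 to 63. The 295 falls and 102 rises added without that library had a median GC content of 39.7% and 62.7%, against 49.8% for all genes tested. The other settings gave 44 to 94, with 80 for DESeq2's Wald test (all 64 included). In the 33 settings 15 of the 64 genes always passed and 0 changed sign. The replicate numbers were checked by the correlation of residuals: 36 of 45 pairs of samples with the same number had r over 0.1 (mean 0.228, lowest -0.0992), and replicate 2 of DHA + PRO, whose library belongs to the later series, had a mean r of 0.0352 with replicate 2 of the other groups and 0.273 with replicate 3. Among the pairs without replicate 2 of DHA + PRO, 35 of 40 had r over 0.1 (mean 0.252, lowest -0.0117), against 1 of the 5 pairs that held it. The numbers therefore do not clearly pair all the samples, least of all replicate 2 of DHA + PRO. The biological coefficient of variation was 0.0969 with the block and 0.141 without.

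Within backgrounds, the counts without the block were 2 (DHA against Ctrl), 1 (DHA + PRO against PRO) and 3 (DHA + PCA against PCA), those without the filter on low counts were 66, 24 and 20, and leaving out replicates gave 0 to 15, 0 to 24 and 2 to 10, with 0, 0 and 2 without replicate 3, 15, 3 and 4 without replicate 2, and 24 for DHA + PRO against PRO without replicate 1. Differences between the backgrounds passed for 2 genes without the filter. Differences between the times passed for 0 genes without the block and 37 without the filter, and for 8 to 28 when replicates were left out (10 without replicate 2 and 8 without replicate 3). The cause of these shifts was not tested.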

Other observations

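With the GC-content offset and the replicate block, 32 genes passed that did not pass in the fit without the offset, some of which also passed in other settings, and those below were named after their values were seen. Beside FASN they held FDPS (log2 fold change -0.18, SE 0.0415), the farnesyl diphosphate synthase, FADS1 (-0.20, SE 0.0428), the delta-5 desaturase of polyunsaturated fatty acids, and ACSL4 (-0.26, SE 0.0427), an acyl-CoA synthetase that prefers arachidonate. MMAB, which shares its promoter region with MVK, had a value of -0.31 (SE 0.0654), and IDH1, a cytosolic source of NADPH, of -0.15 (SE 0.0332). SPP1, osteopontin, had a value of 0.18 (SE 0.0369). The largest change among the 32 was that of AKR7A3, an aldo-keto reductase, at -0.97 (SE 0.237, adjusted p = 0.0413). The adjusted p-values of the 6 genes from FDPS to SPP1 in edgeR ran from 0.000490 (ACSL4) to 0.0193 (FDPS). In the fit without the offset they ran from 0.0639 (FADS1) to 0.254 (FDPS).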
